A study of Mus musculus with 6 samples.

Results

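The Klf9 locus was examined as a window of 270 kb on mouse chromosome 19, from 23030000 to 23300000 in mm9, which holds Klf9 on the plus strand and its upstream flank. The rule for the window places Klf9 at about 23.216 to 23.241 Mb, and every distance from the gene start below is counted from 23.216 Mb and is therefore approximate. All DNase I hotspots of the 6 deposited lists that overlap the window were taken, and hotspots that shared at least 1 position were merged into regions. The window held 14 of the 59069 regions of the series. The locus was chosen by its measured values, namely the presence, z-score and density of its hotspots in Dex against LPS lists, so these are given as a description, with no test.

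Klf9 encodes Krüppel-like factor 9, a zinc finger transcription factor that binds GC-rich DNA and often represses its targets. It is a well known glucocorticoid-induced gene in many cell types, and upstream DNA that responds to corticosteroids and thyroid hormone has been described for it in frogs and mammals. The glucocorticoid receptor is a steroid-activated transcription factor, and the distal DNA it binds is commonly found as DNase I hypersensitive sites, where chromatin is open to the nuclease. A hypersensitive site shows open chromatin only, so neither enhancer activity nor a target gene was measured for any region here.

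DNase-seq was done on primary macrophages grown from bone marrow of C57BL/6J mice. All cells were stimulated for 8 h with lipopolysaccharide (LPS), a component of the bacterial cell wall. The pre-treated group (2 libraries) also received Dex, the glucocorticoid of the study, before LPS. The late-treated group (2 libraries) received Dex late in the LPS treatment, and the LPS group (2 libraries) received no Dex. The labels give no dose of Dex, no interval between the treatments, and no statement of whether replicates are separate animals or cultures, so their spread may be technical. Cells without LPS were not analysed here, and the macrophage identity was not checked against marker genes, since the files name no genes.

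The pre-treated libraries listed 34646 and 44686 hotspots in all, the late-treated libraries 29347 and 44447, against 48084 and 51834 in the LPS libraries. Replicate 1 had the shorter list in every group. The lowest listed z-score was 9.34 and 9.16 in the pre-treated libraries, 11.6 and 8.98 in the late-treated libraries, against 7.98 and 8.35 in the LPS libraries. The LPS lists thus reached lower than any Dex list. Total tag numbers are unknown. The median maximum density over the 25091 regions listed in all 6 libraries was 18.1 and 19.7 in the pre-treated libraries, 17.6 and 19.5 in the late-treated libraries, against 19.1 and 18.7 in the LPS libraries. That median lay close together in all libraries, although no source states how the densities were scaled.

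The sequence shown is the Klf9 promoter, because the strongest region of the window spans the gene start in all libraries. It comes from RefSeq, from 250 bases before to 50 bases after the annotated start, on the plus strand of chr19:23140976-23141275 in GRCm38.p6. That build is not the build of the hotspot lists, so these positions cannot be set beside the others in the text. The capitals mark a match to the AP-1 motif TGANTCA.
Klf9 promoter: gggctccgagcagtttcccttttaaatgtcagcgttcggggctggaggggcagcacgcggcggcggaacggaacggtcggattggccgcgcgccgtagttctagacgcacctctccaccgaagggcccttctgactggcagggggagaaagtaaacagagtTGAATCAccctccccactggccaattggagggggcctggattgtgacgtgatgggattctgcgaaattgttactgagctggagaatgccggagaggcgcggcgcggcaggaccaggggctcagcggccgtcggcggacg

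The Klf9 promoter was rich in CpG. It held 28 CpG dinucleotides and 63.3% G and C, against medians of 7 and 52.7% over 32851 RefSeq promoter windows of 300 bases, and 85.8% of those windows held fewer CpG. On both strands, 5 motifs were searched. The AP-1 motif, searched as TGANTCA with any base at N, began 89 bases upstream of the annotated start, where it read TGAATCA. This search pattern was met in 7.81% of all windows. The palindromic glucocorticoid response element, GNACA and TGTNC set 3 bases apart, did not occur in the 300 bases, and 0.475% of all windows held it. The shorter receptor site AGAACA (18.97% of all windows), the NF-kB motif of GGG and CC set 5 bases apart (50.8%) and the GC box GGGCGG (35.7%) did not occur either. Of 16 listed glucocorticoid targets, Klf9 included, 14 had a window. Among these, Sgk1, a kinase induced by glucocorticoids, was the 1 gene with the palindrome, and Klf9 and Il1rn, which encodes the interleukin-1 receptor antagonist, were the 2 with the AP-1 motif. Of 13 Krüppel-like factor genes with a window, Klf9 was the 1 with the AP-1 motif, which 7.81% of all windows held. Most genes of both lists had the NF-kB motif that Klf9 lacked, 12 of the 14 targets and 10 of the 13 Krüppel-like factor genes. The GC box, also absent from Klf9, occurred in 10 of the 14 and 10 of the 13. The shorter receptor site occurred in 2 of the 14 and 0 of the 13, and the palindrome in 0 of the 13. A match or its absence describes these letters only, and the letters of the other regions were not read, since no mm9 sequence was used.

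The pre-treated libraries listed 9 and 13 regions of the window, the late-treated libraries 7 and 12, against 4 and 4 in the LPS libraries. Hotspots covered 9447 and 12975 bp of the window in the pre-treated libraries, 7720 and 11604 bp in the late-treated libraries, against 4040 and 5079 bp in the LPS libraries. All Dex libraries lay above both LPS libraries in each measure, although their lists as a whole were shorter. As a share of all the length covered by a list, the window took 0.0336% and 0.0345% in the pre-treated libraries, 0.0329% and 0.0320% in the late-treated libraries, against 0.00996% and 0.0115% in the LPS libraries.

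**Figure D1:**
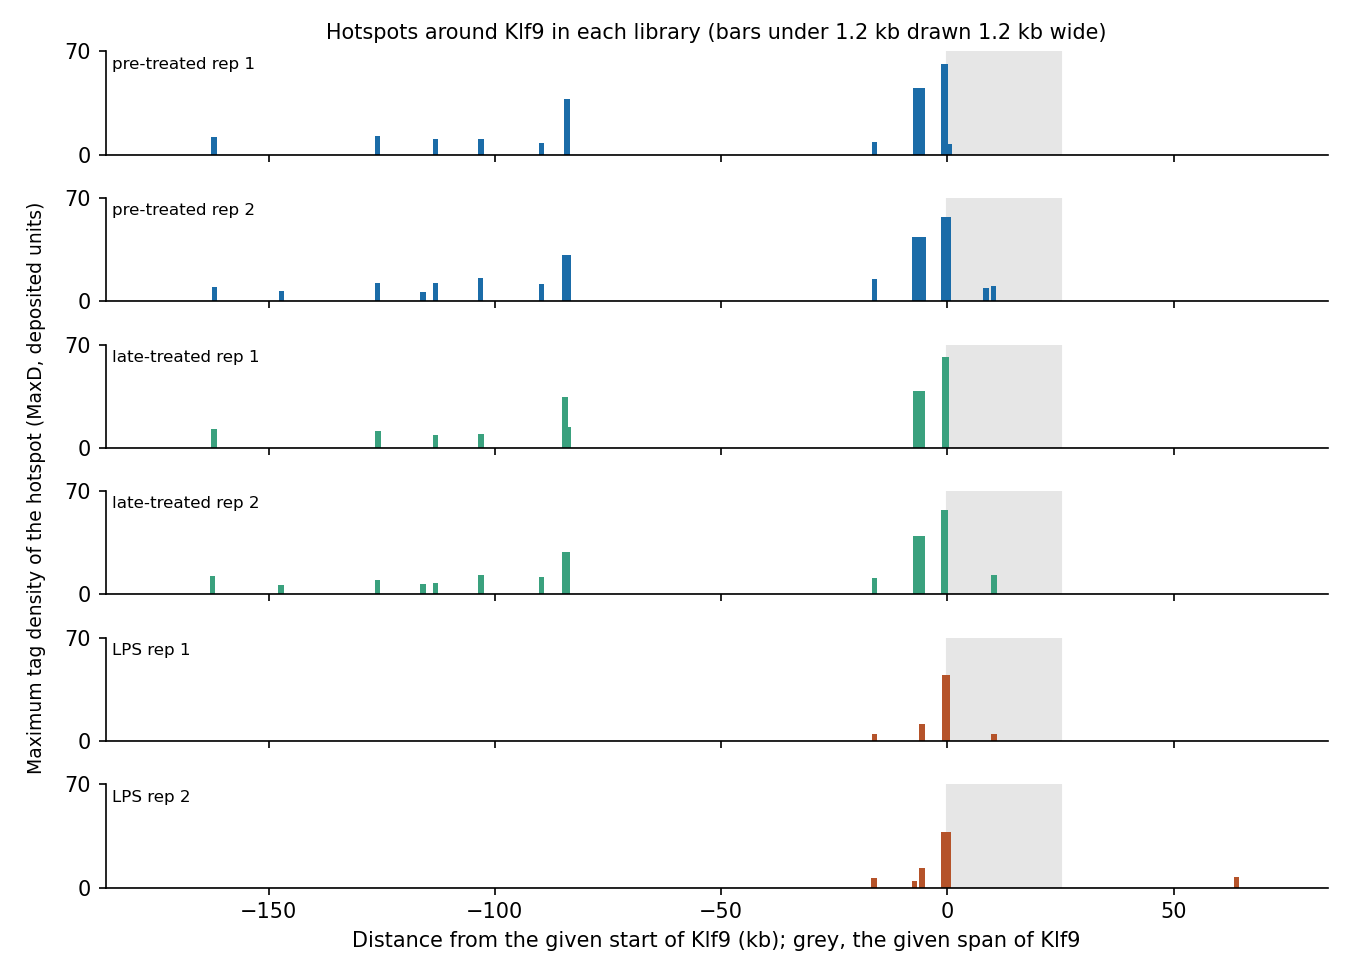
Hotspots of the window in each library, from pre-treated replicate 1 at the top to LPS replicate 2 at the bottom. The horizontal axis is the distance from the given start of Klf9 in kb, the vertical axis the maximum tag density of each hotspot in deposited units, and the grey band the given span of Klf9. The 4 Dex libraries carry 6 to 8 hotspots in the upstream block, where the LPS libraries carry 0.

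Regions that every Dex library and no LPS library listed are called Dex-only here. Of the 14 regions, 5 were Dex-only, where 0.389% of all regions of the series were. Chromosome 19 held 12 Dex-only regions in all, among its 1951 regions. The 5 lay 162, 126, 113, 103 and 84 kb upstream of Klf9, in a block of 79.8 kb that also held 3 other regions. Both pre-treated libraries and neither LPS library listed 6 regions of the window (0.957% in the series), and both late-treated libraries and neither LPS library listed 5 (0.547% in the series). Both Dex groups were set against the same LPS libraries, and because the locus was chosen for this pattern nothing is read from these shares.

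The 2 LPS libraries listed no hotspot between 22990795 and 23199586, a stretch of 208.8 kb that includes the whole block. The Dex libraries listed 6 and 8 hotspots of the block in the pre-treated group, and 6 and 8 in the late-treated group. In late-treated replicate 1, 2 of the 6 lie in the same region, 84 kb upstream, so these counts are of hotspots and not of regions. In RefSeq's order of protein-coding genes on GRCm38.p6, Klf9 stands between Trpm3, an ion channel gene, and Smc5, which encodes a subunit of a DNA repair complex. Which gene an upstream region lies in was not determined, because no mm9 annotation was used.

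The strongest Dex-only region lay 84 kb upstream, at 23130783 to 23132737. Its maximum tag density, the MaxD of the deposited lists, was 37.5 and 31.5 in the pre-treated libraries and 34.8 and 28.8 in the late-treated libraries. Its z-score was 36.2 and 33.2 in the pre-treated libraries and 35.1 and 30.2 in the late-treated libraries. The Dex groups overlapped in both measures, with a mean maximum density of 34.5 ± 4.21 in the pre-treated group and 31.8 ± 4.26 in the late-treated group (SD, n = 2 each).

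The lists differ in length and lowest z-score, so the percentile of the z-score within the list was used to compare libraries. Percentiles were not adjusted for list length. Over all shared regions the mean Dex percentile minus the mean LPS percentile had a median of -6.91. The 84 kb region stood at the percentiles 72.4 and 74.5 in the pre-treated lists and 66.6 and 73.9 in the late-treated lists. By the mean over the 4 Dex libraries it ranked 14 of the 230 Dex-only regions of the series. In the LPS lists, 83.9% and 86.9% of the hotspots had a lower maximum density than its lowest Dex value of 28.8. By z-score, 71.9% and 75.7% of the LPS hotspots were below its lowest Dex value of 30.2. Both shares compare values across libraries, and the part of list depth in its absence from the LPS lists was not tested. Late-treated replicate 1 listed it as 2 hotspots 15 bp apart, and its covered length ran from 1270 to 1954 bp over the Dex libraries.

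The other Dex-only regions had lower maximum densities and were narrower in all 4 Dex libraries. The 103 kb region, at 23112506 to 23113334, had a maximum density of 10.7 and 15.6 in the pre-treated libraries and 9.60 and 12.8 in the late-treated libraries, which overlapped. It stood at the percentiles 39.5 and 55.1 in the pre-treated lists and 33.6 and 58.0 in the late-treated lists. The replicates of each group were further apart than the group means, 47.3 and 45.8.

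The 113 kb region, at 23102565 to 23103244, had a maximum density of 10.3 and 12.1 in the pre-treated libraries and 8.40 and 7.53 in the late-treated libraries. Its percentile was 41.8 and 60.5 in the pre-treated lists and 25.8 and 25.8 in the late-treated lists. Both pre-treated libraries lay above both late-treated libraries in either measure. The same order held at the 126 kb region, at 23089801 to 23090419, whose maximum density was 12.4 and 12.5 in the pre-treated libraries and 11.2 and 9.74 in the late-treated libraries.

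The 162 kb region, at 23052980 to 23054279, had a maximum density of 11.9 and 9.49 in the pre-treated libraries and 12.8 and 12.4 in the late-treated libraries. Here both late-treated libraries were the higher ones, as they were by the deposited z-score. By percentile of maximum density the groups overlapped, at 43.4 and 34.5 (pre-treated) against 38.6 and 49.0 (late-treated). They also overlapped by percentile of z-score, at 27.4 and 23.8 against 19.9 and 37.6. By percentile of z-score the 162 kb region was the weakest Dex-only region of the window, with a mean of 27.2, and ranked 172 of 230. By percentile of maximum density its mean was 41.4, and the 113 kb region was the weakest, at 28.7. In the LPS lists, 44.7% and 43.8% of the hotspots had a lower maximum density than the lowest Dex value of the 162 kb region, 9.49. By z-score, 31.7% and 30.2% were below its lowest Dex value of 12.2. Late-treated replicate 2 drew it 1279 bp wide, where the other 3 Dex libraries covered 450 to 606 bp.

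**Figure D2:**
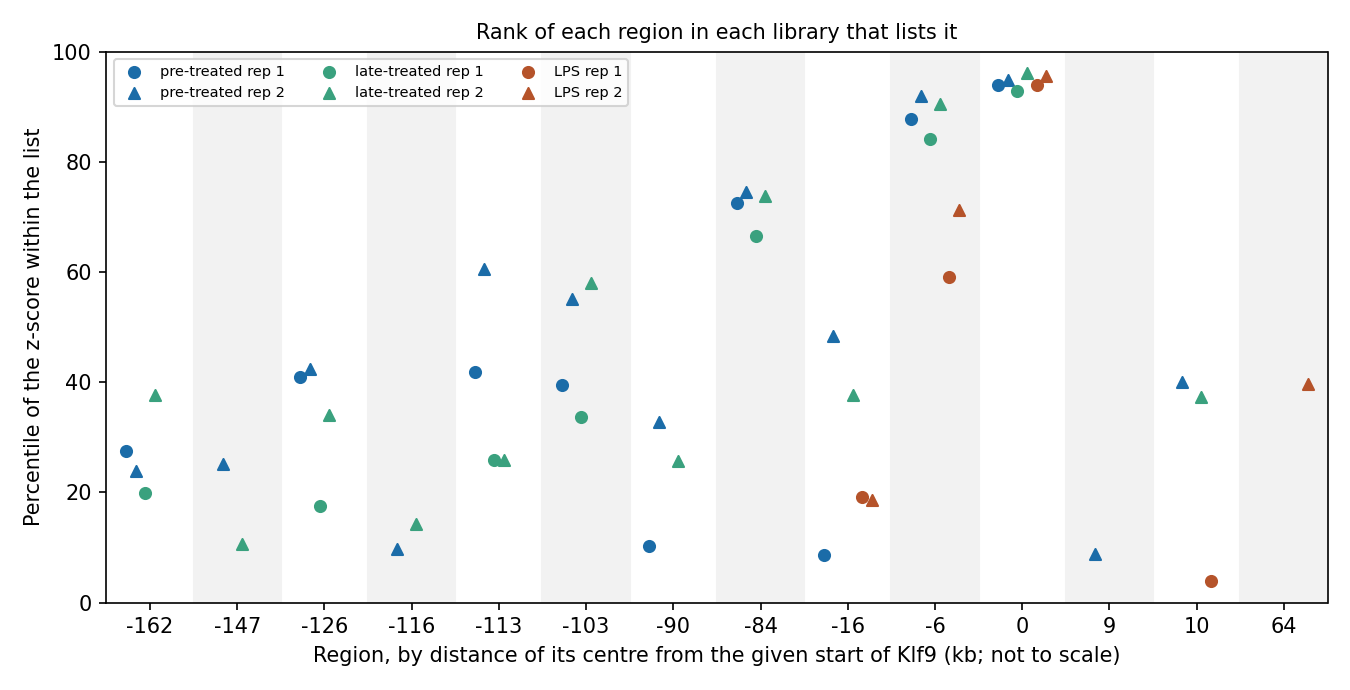
Percentile of the z-score within the list (vertical axis, 0 to 100) for each of the 14 regions in each library that lists it, with regions in map order along the horizontal axis, labelled by distance from the given start of Klf9 in kb. Circles are replicate 1 and triangles replicate 2. LPS points are absent from the upstream block, lie below all Dex points 6 kb upstream, and lie among them at the gene start.

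Among the Dex libraries, the remaining regions of the block were listed by those with longer lists. The 90 kb region, at 23125930 to 23126582, was listed by both pre-treated libraries (z-scores 10.5 and 13.9) and by late-treated replicate 2 (12.2). Late-treated replicate 1, whose list began at 11.6, did not list it. The 147 kb and 116 kb regions were listed in replicate 2 of both Dex groups and in no other library, where the pre-treated library gave them z-scores of 12.5 and 10.2 and the late-treated library 10.1 and 10.5. That pattern was found in 2 of the 14 regions and in 0.918% of all regions of the series. These libraries have the longer list of their group, and the part of list length in the pattern was not tested.

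The nearest region upstream that did not reach the gene start lay 6 kb upstream, at 23208219 to 23211205, and was listed by all 6 libraries. Its maximum density was 44.9 and 43.7 in the pre-treated libraries, 38.8 and 39.9 in the late-treated libraries, against 11.4 and 13.5 in the LPS libraries. The groups did not overlap, and the means were 44.3 ± 0.865 in the pre-treated group, 39.3 ± 0.734 in the late-treated group and 12.5 ± 1.53 in the LPS group (SD, n = 2 each). The mean over the 4 Dex libraries was 3.36 times the LPS mean, a difference larger than the spread between replicates. In pooled nuclei, more open cells and more opening per cell cannot be told apart.

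In each library the 6 kb region was also set against that library's median maximum density over the regions shared by all 6. It stood at 2.48 and 2.21 times that median in the pre-treated libraries, 2.21 and 2.05 times in the late-treated libraries, against 0.597 and 0.722 times in the LPS libraries. It was therefore below the typical shared region under LPS alone and well above it with Dex. Its percentile by z-score was 87.7 and 91.9 in the pre-treated lists, 84.1 and 90.4 in the late-treated lists, and 59.2 and 71.2 in the LPS lists.

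Among the 25091 shared regions, the ratio of maximum densities at the 6 kb region, a log2 of 1.75, was the 19th highest, and the ratio of average densities, a log2 of 1.64, was the 11th highest. By the ratio of z-scores it ranked 42, by the ratio of covered lengths 66, and by the difference of percentiles, 23.3 points, 150. The median log2 ratio of maximum densities over all shared regions was 0.02, with the central 90% between -0.46 and 0.48. All 4 Dex percentiles lay above both LPS percentiles in 1 of the 2 shared regions of the window, the 6 kb region, and in 1.30% of all shared regions. These positions in the ranking describe the 6 lists and carry no test.

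**Figure D3:**
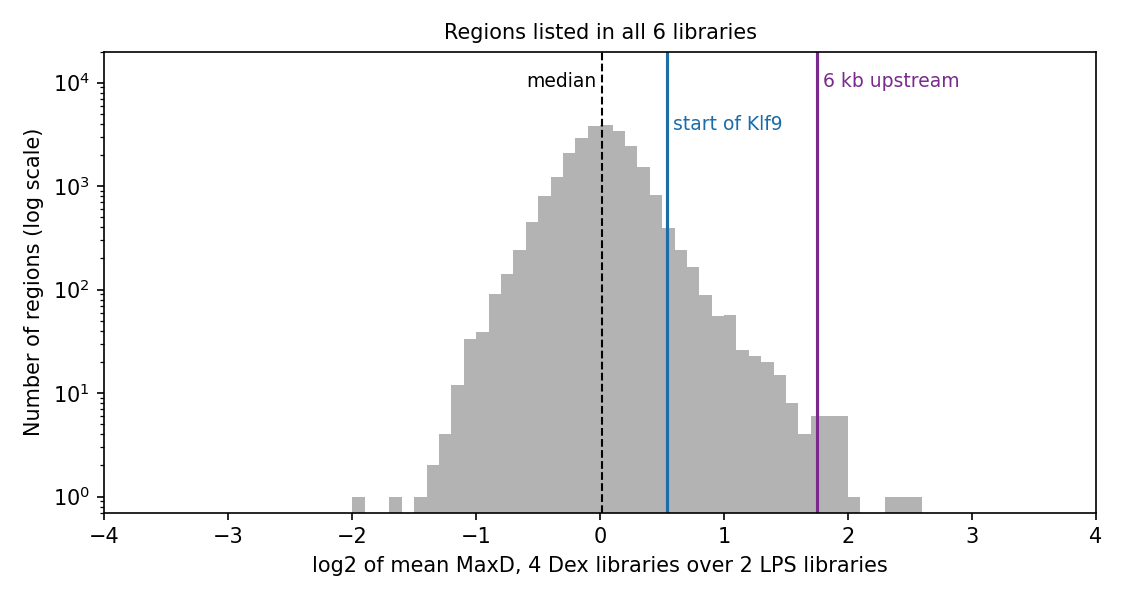
Distribution of the log2 ratio of mean maximum density, 4 Dex libraries over 2 LPS libraries, for the 25091 regions listed in all 6 libraries. The horizontal axis is the log2 ratio and the vertical axis the number of regions on a log scale. The 6 kb region, at 1.75, lies in the far right tail, and the region at the gene start, at 0.54, just beyond the central 90%.

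The 6 kb region was also wider with Dex. Hotspots covered 2710 and 2986 bp of it in the pre-treated libraries, 2620 and 2672 bp in the late-treated libraries, against 1313 and 1750 bp in the LPS libraries. Such an order, with every Dex library above both LPS libraries, was found in 1.46% of all shared regions, and over all shared regions the median ratio of covered lengths, Dex over LPS, was 0.885. The added length was on the side away from the gene. The hotspots began between 23208219 and 23208406 in the Dex libraries, and the main LPS hotspots began at 23209709 and 23209646, while all of them ended between 23211022 and 23211205. LPS replicate 2 listed a separate weak hotspot at 23208554 to 23208922, with a maximum density of 4.51, which lies 724 bp before its main hotspot and inside the stretch the Dex libraries covered.

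**Figure D4:**
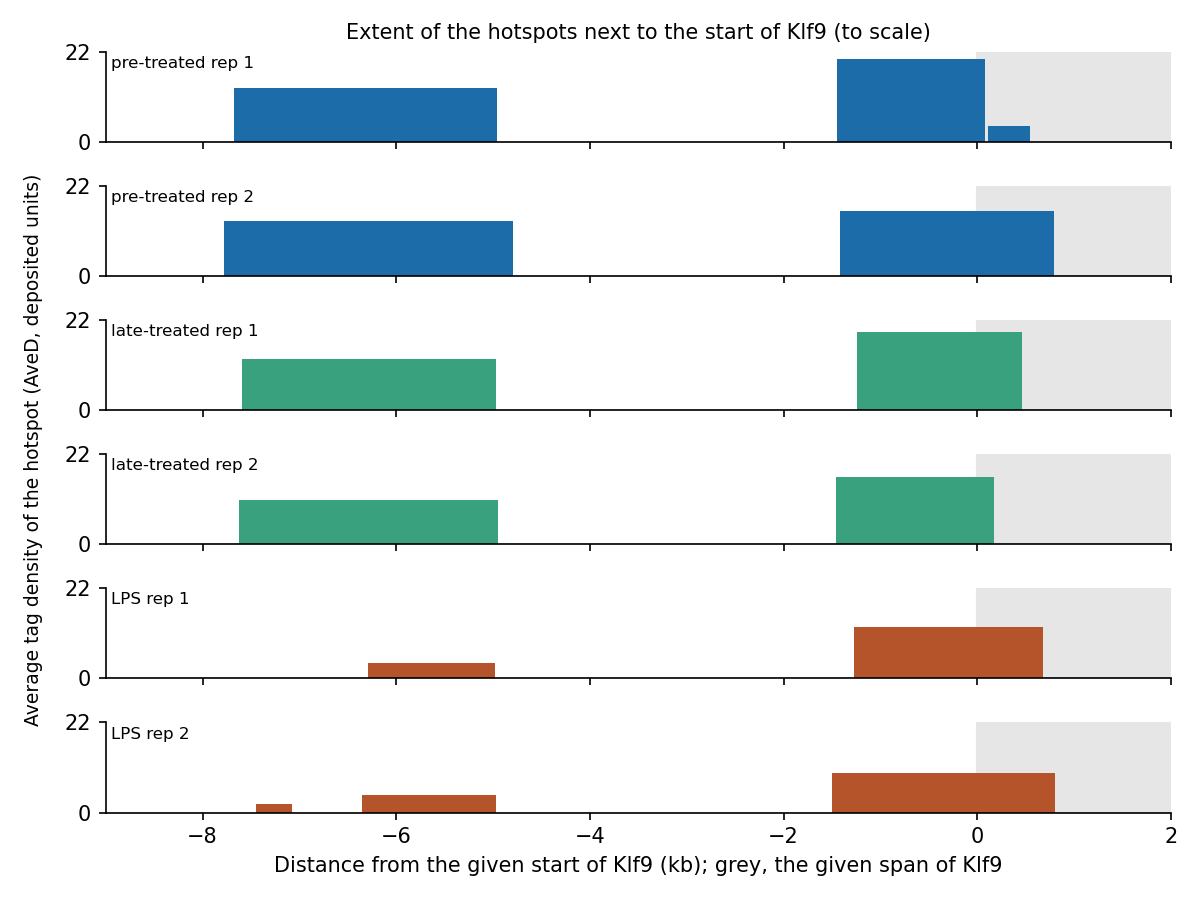
Extent of the hotspots next to the start of Klf9 in each library, drawn to scale. The horizontal axis is the distance from the given gene start in kb, bar height is the average tag density in deposited units, and grey marks Klf9. Bars of the 6 kb region begin between -7.781 and -7.594 kb in the 4 Dex libraries, against -6.291 and -7.446 kb in LPS replicates 1 and 2. The bar at -7.446 kb is the separate weak hotspot of LPS replicate 2. Covered lengths are 2620 to 2986 bp in the Dex libraries, against 1313 and 1750 bp in the LPS libraries.

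The region that spans the given start of Klf9, at 23214496 to 23216805, was the strongest of the window in every library. Its z-score was 98.3 and 78.3 in the pre-treated libraries, 96.8 and 76.0 in the late-treated libraries, against 89.4 and 75.2 in the LPS libraries. The groups overlapped, as they did in the percentiles, at 94.0 and 94.9 in the pre-treated lists, 92.8 and 96.2 in the late-treated lists, and 94.0 and 95.6 in the LPS lists. The mean Dex percentile minus the mean LPS percentile was -0.359, against a median of -6.91 over all shared regions. A higher difference was found in 12.6% of them. The gene start was thus open with and without Dex.

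Its densities gave another picture. The maximum density at the gene start was 61.8 and 57.3 in the pre-treated libraries, 61.6 and 57.6 in the late-treated libraries, against 44.5 and 37.5 in the LPS libraries, with no overlap between Dex and LPS libraries. The means were 59.5 ± 3.14, 59.6 ± 2.87 and 41.0 ± 4.94 in the same order (SD, n = 2 each), so that Dex libraries averaged 1.45 times the LPS libraries. Every Dex library lay above both LPS libraries in maximum density in both shared regions of the window and in 8.25% of all shared regions. The ratio ranked 936 of 25091, well behind the 6 kb region. By percentile of maximum density the Dex and LPS lists overlapped. These percentiles were 92.9 and 96.3 (pre-treated), 92.1 and 96.8 (late-treated), against 91.4 and 92.3 (LPS). As multiples of each library's median over shared regions, the densities did not overlap. They stood at 3.41 and 2.90 (pre-treated), 3.5 and 2.955 (late-treated), against 2.33 and 2.0 (LPS). The covered length overlapped between Dex and LPS libraries, at 1969 and 2212 bp in the pre-treated libraries, 1701 and 1627 bp in the late-treated libraries, against 1950 and 2309 bp in the LPS libraries.

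**Figure D5:**
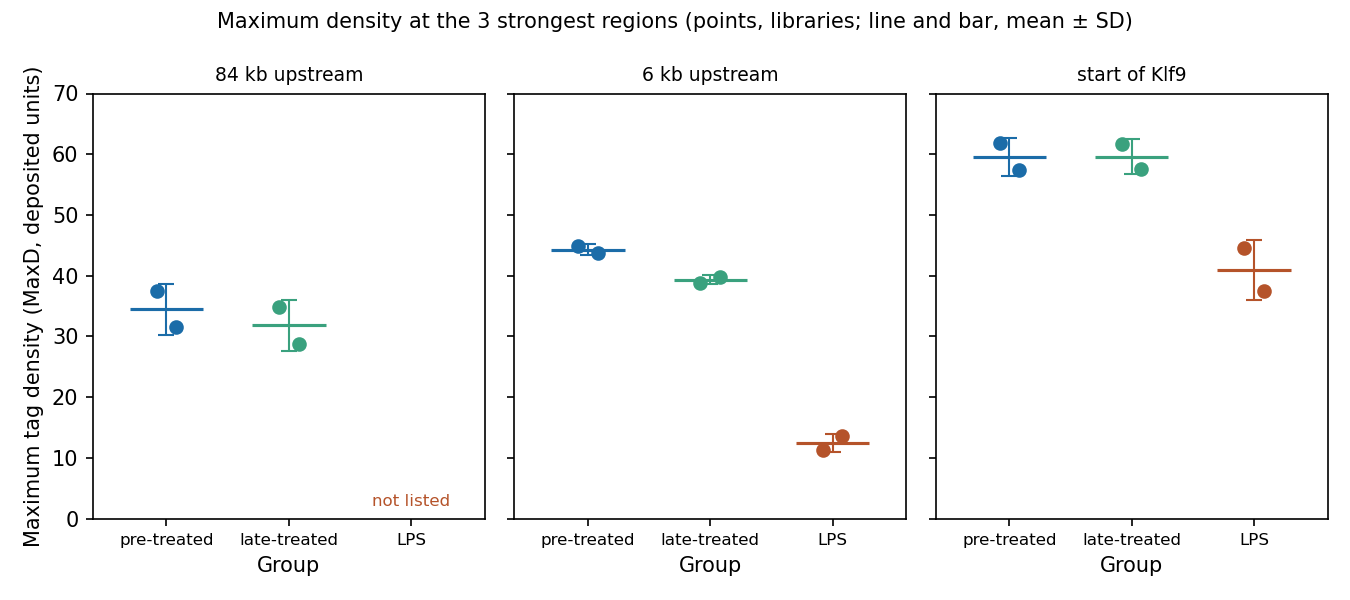
Maximum tag density in deposited units (vertical axis) at the regions 84 kb upstream, 6 kb upstream and at the start of Klf9, by group (horizontal axis). Points are libraries, lines the group means and bars the SD of 2 libraries. LPS libraries do not list the 84 kb region, stand at 11.4 and 13.5 in the 6 kb region, and at 44.5 and 37.5 at the gene start.

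The timing of Dex was compared over the 7 regions of the window that all 4 Dex libraries listed. By maximum density both pre-treated libraries were above both late-treated libraries in 3 of them, the 126 kb, 113 kb and 6 kb regions, where 13.7% of such regions of the series were. The reverse order was found in 1, the 162 kb region, and in 11.4% of the series. By percentile of z-score, 2 of the 7 had both pre-treated lists on top (the 126 kb and 113 kb regions, 15.6% in the series) and 0 had both late-treated lists on top (3.10% in the series). The percentiles of late-treated replicate 1 come from the shortest list, and the part of list length in these orders was not tested. At the 6 kb region the pre-treated mean of maximum density was 1.13 times the late-treated mean, a gap of 4.94 between means of 2 libraries each. By percentile of z-score and by percentile of maximum density the 2 groups overlapped there. Relative to each library's median over shared regions, pre-treated replicate 2 stood at 2.212 and late-treated replicate 1 at 2.205. On that scale the groups overlapped at the 126 kb region, at 0.6818 and 0.6346 (pre-treated) against 0.6364 and 0.5 (late-treated). They also overlapped at the 162 kb region, at 0.6591 and 0.4808 against 0.7273 and 0.6364. The 113 kb region kept its order, at 0.5682 and 0.6154 against 0.4773 and 0.3864. Within each replicate number, a comparison added after the data were seen, the pre-treated library had the higher maximum density in 5 of the 7 regions, the 103 kb and 84 kb regions added (31.1% in the series), and the late-treated library in 1, again the 162 kb region (25.2% in the series). An exact two-sided permutation test of 2 libraries against 2 cannot go below p = 0.333, and no test of timing was run.

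The other regions near and inside the gene showed no ordering by group in which libraries listed them. The 16 kb region, at 23199557 to 23200204, was listed by all libraries except late-treated replicate 1. Its maximum density was 8.65 and 15.2 in the pre-treated libraries, 11.1 in late-treated replicate 2, and 5.02 and 6.25 in the LPS libraries. Each Dex library that listed it lay above both LPS libraries by density, but pre-treated replicate 1 lay below them by percentile, at 8.63 against 19.2 and 18.6. The z-scores behind these percentiles were close, at 10.3 against 10.1 and 10.4.

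Inside the given span of Klf9, 10 kb after its start, the region at 23225923 to 23226610 was listed by pre-treated replicate 2, late-treated replicate 2 and LPS replicate 1, at maximum densities of 10.3, 12.8 and 5.02. Pre-treated replicate 2 alone listed the region at 23224282 to 23224764 (z-score 10.1), and LPS replicate 2 alone the region at 23279579 to 23280112 (z-score 14.1), which lies 64 kb after the gene start and beyond its given end. Whether regions inside the gene are exonic or intronic was not determined.

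The window's edges decide which regions belong to it. The outermost members are the 162 kb region and the one 64 kb after the start. The nearest regions outside lay at 22991191 to 22991543, listed by pre-treated replicate 2 alone at a z-score of 11.4, and at 23320704 to 23321861, listed by all 6 libraries at z-scores up to 28.9.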

How the data were processed

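Per the labels' protocols, DNase I was used at 80 U/ml (3 min, 37 °C), size selection kept 100 to 500 bp, and sequencing gave single-end reads of 51 bp. The submitters' processing notes name CASAVA and mm9. The hotspot caller, its threshold and the aligner remain unknown (not given in the sources used here). The authors deposited 1 hotspot list per library. Per the file headers, each hotspot has a position, 2 signal values (maximum and average tag density), a score (its z-score) and a p-value of unstated adjustment. Positions are printed as deposited, since their counting base (0 or 1) is unstated, and widths are end minus start. In every library 100% of the deposited maximum densities were whole multiples of a step, within 0.1 of a step. The step was 0.412 and 0.380 in the pre-treated, 0.400 and 0.443 in the late-treated, and 0.334 and 0.347 in the LPS libraries, so 1 step is worth least in the LPS libraries. No counting interval was computed.

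Lists were merged with pandas 2.3.3 in Python 3.11.15. A region takes the highest value of a library's hotspots in it. Percentiles are ranks within a list. The merging and classing were tested on simulated lists. The members, lists and motifs were chosen with earlier results of these data known. All 14 regions are accounted for, with values in every library for those that are Dex-only, next to the gene start, strongest of their listing class or without overlap between groups.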

Additional observations from a re-analysis of the deposited data

How the results depend on the processing

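The 5 Dex-only regions stayed 5 with a common minimum z-score of 11.6, with hotspots up to 500 bp apart merged, and with the window widened by 100 kb on each side, and were 4 where hotspots had to cover 50% of a region. With lists of equal length (29347 hotspots) they were 3, and in the stronger 50% of each list 1, the 84 kb region, which stayed Dex-only in 12 of 12 alternatives. These cuts take weak hotspots out by construction. Leaving out each library gave 5 to 6. Shared regions with Dex percentiles above LPS percentiles numbered 1, the 6 kb region. They were 0 with the 50% cover, which the main hotspot of LPS replicate 1 did not reach, 2 by average density, and 1 in every leave-one-out setting. Shared regions whose pre-treated and late-treated percentiles did not overlap numbered 0. They were 1 with lists of equal length, 1 by the deposited z-score, and 0 to 2 with 1 library left out. The cause was not tested. Covered length in the window was higher by 6651.5 bp in the pre-treated and 5102.5 bp in the late-treated group than in the LPS group. In the stronger 50% of each list these differences were 3631 and 2401 bp. With 1 library left out, the pre-treated one ran from 4887.5 to 8415.5 bp, and the late-treated one from 3160.5 to 7044.5 bp. Ranked by maximum density instead of z-score, the mean percentile of the 84 kb region was 83.5 instead of 71.8.

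With the replicate block, each Dex library set against the LPS library of its number, the shared regions with higher Dex percentiles were again 1. With the same block, chosen after seeing the data, regions with a higher maximum density in the pre-treated than in the late-treated group were 5 instead of 3, and the reverse stayed at 1. Over the shared regions, the differences between replicate 1 and replicate 2 correlated between groups at r = 0.284 to 0.492, but no label ties a number to a shared animal, batch or day. Depth limits what absence from a list means, since a region below a list's lowest z-score is not shown to be closed.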

Other observations

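The 100 kb on either side of the window held 5 further regions, of which 0 were Dex-only and 2 were listed by all 6 libraries. One of these, at 23320704 to 23321861, went the other way from the regions upstream of Klf9. Its maximum density was 4.53 and 7.59 in the pre-treated libraries, 5.60 and 7.09 in the late-treated libraries, against 9.70 and 11.8 in the LPS libraries. All Dex libraries thus lay below both LPS libraries, and by percentile they stood at 13.8 and 45.6 (pre-treated) and 13.4 and 42.8 (late-treated) against 65.3 and 74.1 under LPS alone. The share of all shared regions with this order was not counted. Over all shared regions the mean Dex percentile minus the mean LPS percentile had a median of -6.91. The other, at 23347547 to 23348832, had a maximum density of 30.9 and 22.4 in the pre-treated libraries, 27.6 and 24.8 in the late-treated libraries, against 27.1 and 27.4 in the LPS libraries, where the groups overlapped. These regions were picked after their values were seen.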
